A study of Arabidopsis thaliana with 6 samples.

Results

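Young leaves of wild type Arabidopsis thaliana (accession Columbia, labelled Col) are described here by the level of the transcripts they contain. The loci were chosen by 2 conditions: a probe of the locus matched no other locus, and that probe was well above background on both Col arrays. Of 28308 loci with such a probe, 19107 met the second condition, which is a background share of 67.5% for every count of detected members below. The plants were labelled wild type and no treatment was named for them. The 3rd or 4th leaves were taken 4 days after they emerged, from plants grown on soil for 13 days under 16 h of light and 8 h of dark, 5 h after the lights came on. Col was 1 of 3 genotypes in a study of leaf growth with 6 arrays in all; the other 4 arrays were of mutants of the gene ORE15 and were not used. The 2 Col arrays came from independent biological samples per the series' design text, and no label says how many plants each held.

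A leaf of this age is still growing: cells at its base divide, while cells nearer its tip have left the cell cycle, expand and mature. Most of the RNA of a green leaf comes from mesophyll, the tissue in which chloroplasts capture light with chlorophyll-binding antenna proteins, run it through photosystems II and I, and fix carbon dioxide in the Calvin cycle. The genes of that machinery are split between the nucleus and the small genome of the plastid. An expanding leaf must also make ribosomes, chromatin and cell wall, and its surface is covered by an epidermis with stomata, trichomes and a waxy cuticle.

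Each level is a processed signal, the brightness of a spot in the scanner's units after its background was subtracted. Where a locus had several detected probes, the brightest was taken. The percentile of a locus is the share of detected loci that were dimmer on that array, averaged over both arrays, so that the brightest locus stands at 100 and the middle one at 50. The top decile means percentile 90 or above on both arrays. It held 1829 loci, or 6.46% of all loci on the array, which is the background share for every such count below. Brightness also depends on the sequence and place of a probe, so that these ranks order probe signals and not RNA molecules. The 5580 loci with at least 2 detected probes show how far: the median gap between their brightest and dimmest probe was 23.2 percentile points, it was under 10 points for 27.5% of them and over 50 points for 19.01%. Detected loci with several probes had a median percentile of 60.8 and those with 1 probe 44.2, and taking the brightest of several probes raises such loci by construction. With 1 group of 2 arrays no test was possible, and all values are descriptions.

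The 2 arrays ranked the leaf's transcripts nearly alike. Each array had 1417 control spots among 45220 spots, no saturated spot, and 67.8% (replicate 1) and 71.3% (replicate 2) of its probe spots well above background. Across the 19107 detected loci the Spearman correlation was 0.992, which is a correlation across genes, which are not independent replicates. Of the brightest 100 loci 94 were common to both arrays, and of the brightest 1000 loci 953. Of the 1911 loci at percentile 90 or above on replicate 1, 95.7% were so on replicate 2 too. A locus moved by a median of 1.47 percentile points between arrays, and 89.9% moved by no more than 5 points. Neighbours in the order of levels that lie within those few points were therefore not separated by these arrays.

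The signal was concentrated in few loci. The brightest locus had a signal of 421655 on replicate 1 and 440269 on replicate 2, against median signals of 707 and 651 over detected loci. The brightest 100 loci held 28.6% and 29.1% of the summed signal of all detected loci, and the brightest 1000 held 66.2% and 67.0%. The locus at rank 1000 had 11436 and 11114, and that at rank 10000 had 637 and 592. The last detected locus had 12.1 and 9.48, so that the range spanned several orders of magnitude.

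Photosynthesis led the list. At the top stood LHCA1 (AT3G54890), an antenna protein of photosystem I, with 417058 on replicate 1 and 440269 on replicate 2; its probe matches chromosome 3 at 20339708 to 20339767 (TAIR10). CAB1 (AT1G29930), an antenna protein of photosystem II, followed with 421655 and 415205, from a probe on chromosome 1 at 10478864 to 10478923. PSBO1 (AT5G66570), which stabilises the manganese cluster of the water-splitting complex, had 399364 and 421891, from a probe on chromosome 5 at 26570076 to 26570135. Their order differed between the arrays, and all 3 were brighter than every other locus on both. A further 15 of the 30 brightest loci carried names of the nuclear-encoded antenna (LHCB6, CAB2, CAB3, LHB1B1, LHB1B2, LHCA3, LHCA4, LHCB4.1 and LHCB5) or of photosystem subunits (PSBW, PSBR, PSAF, PSAG, PSAK and PSAO). DRT112 (AT1G20340), annotated as a cupredoxin and known as a plastocyanin, the copper protein that carries electrons to photosystem I, had 351976 and 361991. FED A (AT1G60950), a ferredoxin that accepts electrons from photosystem I, had 255257 and 247682. Soluble electron carriers thus appeared among the 30 brightest beside the complexes they join.

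**Figure D1:**
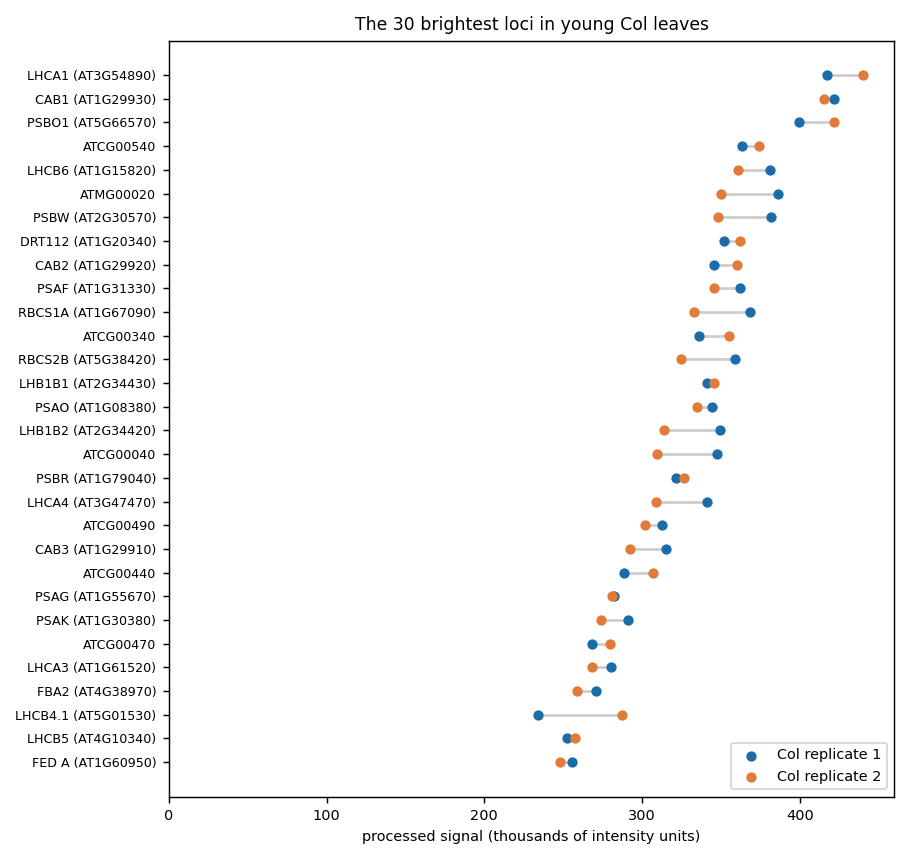
The 30 brightest loci of the Col leaf, ordered by mean rank, with the processed signal divided by 1000 on the x axis and 1 point for each of the 2 arrays. The pair of points of each locus lies close together beside the range of the axis, and LHCA1, CAB1 and PSBO1 stand apart from the rest at 399364 or more.

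Of the families with at least 5 detected members, the light-harvesting antenna had the highest median percentile. Of its 27 members on the array 26 were detected and 21 lay in the top decile, with a median percentile of 99.7. LHCB6, a minor antenna of photosystem II, had 381005 and 360969, and CAB2 had 345371 and 359976. CAB1, CAB2 and CAB3 are near-identical copies, so that their probes may share signal and their separate levels are uncertain. At the other end stood ELIP2 (AT4G14690), a relative of the antenna proteins known to be made under light stress, with 375 and 633, percentile 42.6. The undetected member was AT5G28450.

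Photosystem subunits encoded in the nucleus were all detected, 45 of 45, and 36 lay in the top decile, with a median percentile of 98.8. PSBW of photosystem II had 381869 and 348078, PSAF, the docking site of plastocyanin on photosystem I, had 362091 and 345454, and PSAO had 344393 and 334708. The dimmest was AT4G37230, annotated as a manganese-stabilising protein of photosystem II, with 160 and 162. All 4 genes of the small subunit of Rubisco, the enzyme that fixes carbon dioxide, were in the top decile: RBCS1A had 368468 and 332927, RBCS2B 358988 and 324791, RBCS3B 224216 and 250687, and RBCS1B 175263 and 195272. These 4 are also close copies whose probes may share signal.

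Of 15 loci annotated as Calvin cycle enzymes all were detected and 13 were in the top decile. FBA2, a plastid aldolase, had 270637 and 258876, RCA, the activase that clears inhibitors from Rubisco, had 220090 and 223268, and GAPA-2 and GAPB, subunits of the plastid glyceraldehyde phosphate dehydrogenase, had 127480 and 133361, and 128412 and 131399. PRK (AT1G32060), the phosphoribulokinase that remakes the acceptor of carbon dioxide, had 23729 and 26026, in the top decile and far below FBA2. The 2 transketolase genes were far apart: AT3G60750 had 93816 and 87524, while AT2G45290 was the dimmest member with 154 and 185. Carbonic anhydrases, which interconvert carbon dioxide and bicarbonate, were split in the same manner. CA1 had 141062 and 165074 and CA2 had 72563 and 69794, whereas 6 of 19 members, all of the alpha class genes ACA3 to ACA8, were not detected.

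Of the plastid genome all 56 loci with a probe were detected and 51 were in the top decile, against 6 of 49 for the mitochondrial genome, of which 38 were detected. The median percentiles were 98.9 and 56.3. The mitochondrial median depended on the processing. It was 66.0 with probes of several loci counted for each, and it fell below 50 with no filter on dim probes and over loci with 1 probe. The locus annotated as photosynthetic electron transfer A (ATCG00540), a cytochrome of the complex between the photosystems, had 363412 and 373917. A photosystem I core protein (ATCG00340) had 336295 and 355042, maturase K (ATCG00040), a splicing factor, had 347300 and 309756, and the large subunit of Rubisco (ATCG00490) had 312561 and 302148. A chain of the NADH dehydrogenase-like complex (ATCG00440) had 288601 and 306747, and the epsilon chain of the ATP synthase (ATCG00470) had 268371 and 279701. By probe signal these 6 plastid loci were among the 30 brightest. Core genes of photosystem II were lower, among them reaction centre proteins C (ATCG00280; 178422 and 190392), D (ATCG00270; 129545 and 143826) and A (ATCG00020; 114212 and 132986). The other core protein of photosystem I (ATCG00350) had 36213 and 36793. The dimmest plastid locus was a subunit of the NADH dehydrogenase-like complex (ATCG01010), with 2351 and 2382, percentile 78.8, and 1 subunit of the plastid RNA polymerase (ATCG00190) had 2728 and 2549.

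Of the mitochondrial loci, the 26S ribosomal RNA (ATMG00020) had 386122 and 350360 and the 18S ribosomal RNA (ATMG01390) had 104609 and 85155. The next was subunit 4 of NADH dehydrogenase (ATMG00580) with 35898 and 37282. Cytochrome oxidase genes were much lower, with 3358 and 3177 for ATMG01360 and 1422 and 1377 for ATMG00160. The dimmest detected locus was ATMG00120, a hypothetical protein, with 17.1 and 18.5. Transcripts of organelles mostly lack a stable poly(A) tail, and the primer used for labelling is not named in the labels. Organelle and nuclear RNA levels therefore cannot be set against each other. Their places in the shared ranks and percentiles, also in the plot of families, are those of probe signals only.

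Genes of protein synthesis were bright too. Of 310 loci annotated as ribosomal proteins encoded in the nucleus 291 were detected, or 93.9% against the background of 67.5%, and 174 were in the top decile, with a median percentile of 94.98. The brightest were of plastid ribosomes: SSR16 had 189355 and 172134 and PSRP6 had 137580 and 126719. A member of the L3 family (AT2G43030) had 132281 and 122006, and RPL27AB, of the cytosolic ribosome, had 124918 and 132139. Translation factors had 76 of 82 members detected, 32 in the top decile and a median percentile of 86.2. EF1A (AT5G60390), the elongation factor that brings tRNAs to the ribosome, had 200572 and 190200, and its close copies AT1G07920, AT1G07940 and AT1G07930 had between 73517 and 93268. Aminoacyl-tRNA synthetases were lower, with 35 of 42 detected and a median percentile of 83.8, led by the alanyl enzyme ALATS with 20038 and 17640.

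A family can be nearly all present and yet dim. Pentatricopeptide repeat proteins, which bind and process the RNAs of plastids and mitochondria one by one, had 227 of 250 members detected, or 90.8%, with a median percentile of 23.3 and only 3 in the top decile. AT5G46580 had 13189 and 13354, SVR7 had 7777 and 7362, and MRL1, which is known to stabilise the transcript of the large subunit of Rubisco, had 6994 and 6875. The ribosomal and the pentatricopeptide repeat families thus had nearly equal detected shares and opposite positions in the range, as the plot of families shows.

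Within protein turnover the families differed. All 39 proteasome subunits were detected, with a median percentile of 76.7 and a range from EER5 at 31.3 to PAC1 at 93.8. F-box proteins, which pick targets for ubiquitin ligases, had only 159 of 552 members detected, or 28.8% against 67.5%, with a median percentile of 32.0. The brightest was AT1G23390, with 13811 and 17235, and EID1, a regulator of phytochrome A signalling, had 5372 and 4637. RING finger proteins, another class of ubiquitin ligases, had 258 of 375 detected and none in the top decile, with RDUF1 highest at 6064 and 4380. Large heat shock chaperones had 23 of 25 detected and a median percentile of 85.9, with HSC70-1, a chaperone made without stress, at 43422 and 41684.

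**Figure D2:**
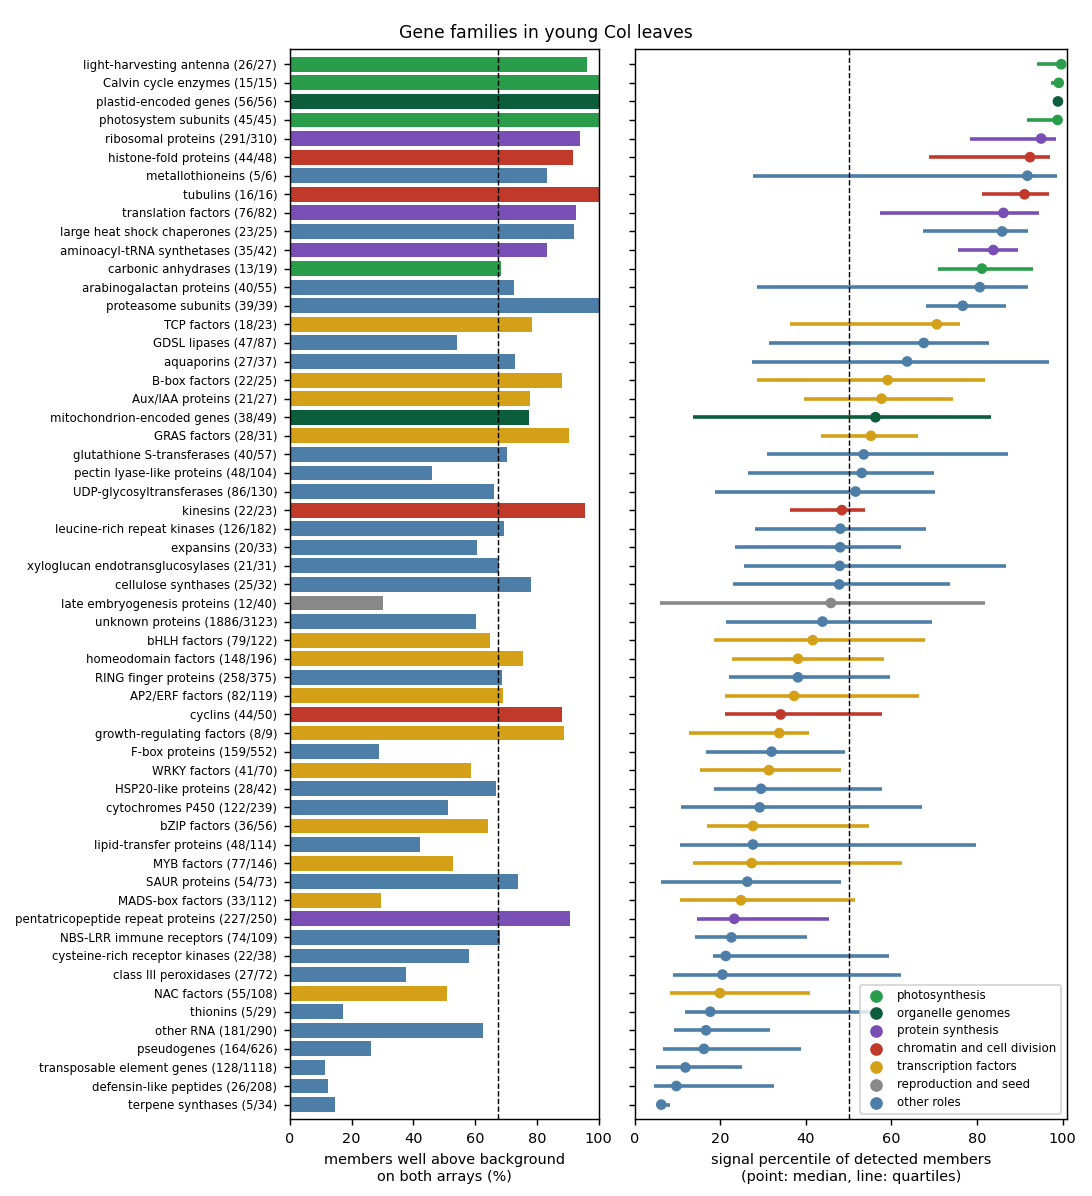
Gene families with at least 5 detected members. Left, the share of members well above background on both arrays in percent, with the share over all loci (67.5%) as a dashed line; right, the median (point) and quartiles (line) of the signal percentile of the detected members, with 50 dashed. Counts in brackets are detected members of members on the array. The antenna, Calvin cycle enzymes, photosystem subunits and plastid-encoded genes have the 4 highest medians, and pentatricopeptide repeat proteins combine a detected share of 90.8% with a median of 23.3.

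Genes of chromatin and of the dividing cell were present at very different levels. Loci annotated as histones or with the histone fold had 44 of 48 detected, 25 in the top decile and a median percentile of 92.4. HTB9, a histone H2B, had 48316 and 45696, and HTA9, a histone H2A variant, had 32985 and 29000. Copies of a histone are near-identical and their levels uncertain. Tubulins, the subunits of microtubules, were all detected, 16 of 16, with TUA6 at 74684 and 70582 and TUA4 at 61527 and 50940, and the dimmest was gamma-tubulin TUBG1 at 89.7 and 68.8. Kinesins, motors that walk on microtubules, had 22 of 23 detected at a median percentile of 48.4, and cyclins 44 of 50 at 34.1, and neither family had a member in the top decile.

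All 16 genes listed for the cell cycle and DNA replication were detected, with a median percentile of 69.7. In the top decile was 1, or 6.25% of the list, near the 6.46% of all loci. MCM7, a subunit of the replicative helicase, had 5917 and 5558, and SYP111, the KNOLLE syntaxin that builds the cell plate between daughter cells, had 6327 and 4380. PCNA2, the sliding clamp of DNA polymerase, had 2967 and 2747. The D-type cyclins that drive entry into the cycle lay between CYCD3;2 at 2879 and 2496 and CYCD3;1 at 1418 and 1082. The mitotic gene CYCB1;1 was lowest of the list with 413 and 237, percentile 33.5, and CDKB1;1 and CDKB2;1, kinases of the G2 and M phases, had 600 and 470, and 813 and 600. In bulk leaves fewer cells of a type and less RNA per cell cannot be told apart.

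The GRF transcription factors and their GIF partners, which promote cell proliferation in leaves, were dimmer. Of 12 listed 11 were detected, none in the top decile, with a median percentile of 36.7. GIF2 had 1693 and 1557, GRF3 had 1103 and 1134 and GRF4 had 896 and 636. AN3, the GIF best known for its effect on leaf size, had 589 and 363, GRF5 had 127 and 65.0, and GRF7 was near the bottom of all detected loci with 17.1 and 12.5. GRF8 was not well above background. ORE15 (AT1G31040), a PLATZ family gene and the gene mutated in the study's other genotypes, had 31.05 and 31.06, percentile 5.40, from a probe on chromosome 1 at 11069800 to 11069859, and so was detected but among the dimmest loci.

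Regulators of leaf polarity and shape were all detected, 15 of 15, with a median percentile of 62.7. TCP4, which drives leaf cells out of division, stood far above the rest with 12870 and 11797. Its relatives TCP2, TCP10 and TCP3 had between 1240 and 1980. The genes of the upper leaf side PHB, PHV and REV lay at percentiles 57.1 to 60.7, and the YABBY genes of the lower side FIL, YAB2, YAB3 and YAB5 at 55.6 to 69.5. KAN and KAN2, also of the lower side, were lower with 229 and 180, and 200 and 177. AS1 had 1315 and 962, while its partner AS2 had 97.2 and 87.7. The upper and lower side genes thus overlapped in level, and the 3 dimmest of the list were KAN, KAN2 and AS2.

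**Figure D3:**
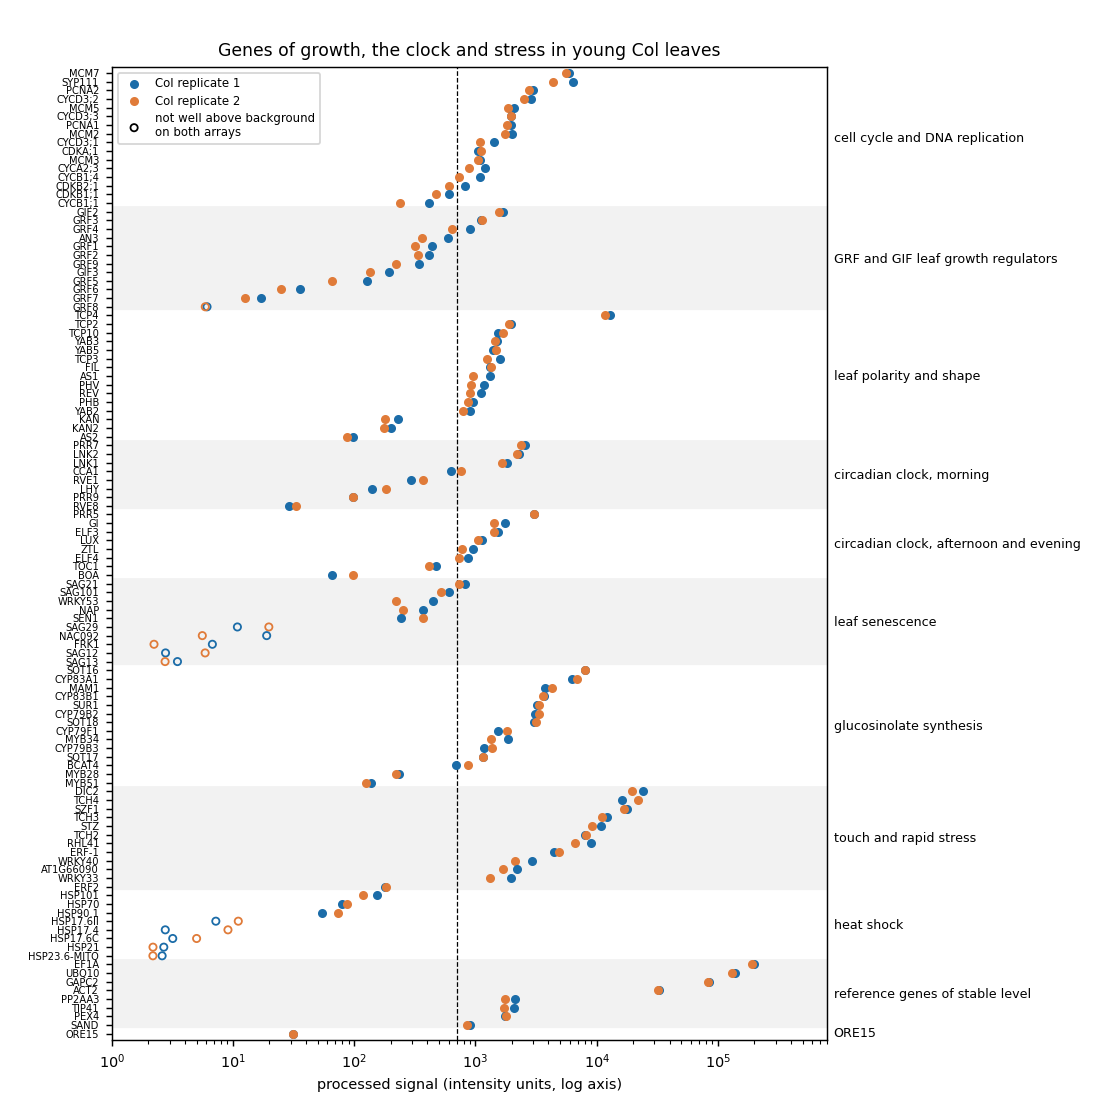
Processed signal on a log axis for each gene of the lists by function, with 1 point for each of the 2 arrays and open points where the gene was not well above background on both. The dashed line is the median of all detected loci on replicate 1 (707). TCP4 and the reference genes EF1A, UBQ10, GAPC2 and ACT2 lie to the right of the rest of their lists, and ORE15 lies far to the left at 31.05.

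Of transcription factors, over the families counted, 648 of 1044 loci were detected, or 62.1%, near the 67.5% of all loci. Of the 1044 loci 18 lay in the top decile, against 6.46% of all loci. The highest was AT5G08330, a TCP factor listed as TCP11 in RefSeq, with 22962 and 22135, followed by IAA8, a repressor of auxin response, with 23157 and 18882, and COL4, a B-box protein related to CONSTANS, with 19583 and 18241. MYB73 had 11873 and 14102, AT5G23280 of the TCP family 13224 and 11372, MYBR1 10288 and 15222, and WRKY70, a regulator of salicylic acid and jasmonate defence, 12029 and 11381. AT5G61590 and RAP2.4, both of the AP2/ERF class, completed the 10 brightest together with TCP4. The TCP family gave 3 of these 10 although only 23 of its loci were on the array.

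Families of transcription factors differed in how much of them was detected. GRAS factors had 28 of 31 members detected, B-box factors 22 of 25 and homeodomain factors 148 of 196. NAC factors had 55 of 108, MYB factors 77 of 146 and MADS-box factors, many of which act in flowers and gametophytes, 33 of 112, or 29.5%. The brightest MADS-box genes were SVP, a repressor of flowering, with 6164 and 4916, and AGL20 (SOC1), a promoter of flowering, with 4290 and 3316. The detected NAC factors had a median percentile of 19.95, the lowest of these families, while TCP factors had 70.6. That median for TCP factors was 57.2 when the mean of a gene's probes replaced the brightest.

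Genes of the leaf surface were bright. All 7 markers of epidermis and cuticle were detected, 6 of them in the top decile: PDF1 had 32477 and 26869, and HTH, an enzyme of cutin synthesis whose loss fuses organs, had 30400 and 27884. CER1, CER6 and FDH, enzymes that make the long-chain lipids of wax and cuticle, had 11286 and 9403, 5939 and 6511, and 10509 and 9089. The transcription factors of epidermal identity PDF2 and ATML1 had 11175 and 10108, and 4065 and 3252. Among lipid-transfer proteins only 48 of 114 were detected, but a few were very bright: AT2G45180 had 227979 and 245694, AT2G10940 had 140502 and 146425 and LP1, lipid transfer protein 1, had 68036 and 60823. The median percentile of the detected members was 27.7, so that this family held both ends of the range.

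The stomatal lineage was present at every stage. All 9 listed genes with a single-locus probe were detected; HIC had no such probe. The receptor-like protein TMM had 7680 and 5618. SPCH, MUTE and FAMA, which act in turn to start the lineage, commit the guard mother cell and finish the guard cells, had 348 and 320, 514 and 432, and 938 and 1006. The peptides EPF2 and EPF1, which act on early and later cells, had 486 and 357, and 965 and 918. Of the genes of mature guard cells MYB60 and the potassium channel KAT1 had 846 and 924, and 801 and 636, and the anion channel SLAC1 was lowest with 208 and 170. The 3 lineage factors kept the order SPCH, MUTE, FAMA on both arrays, but they have different probes, and that order is not an order of RNA amounts.

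Of 7 trichome regulators 6 were detected, all below the 7 epidermal genes on both arrays. TTG1 had 3545 and 3217, GL2 1198 and 930, CPC 294 and 180, TRY 188 and 157, GL1 115 and 75.1 and EGL3 64.2 and 52.7, and GL3 was not well above background. Vascular genes were all detected. In the phloem list the glutaredoxin GRXS2 had 8410 and 13778, AHA3 3918 and 4819, the sucrose transporter SUC2 3623 and 4049, SEOR1 2706 and 2827, SULTR2;1 2067 and 2165, APL 666 and 740, and CALS7 163 and 170. In the xylem list the peptidase XCP2 had 4178 and 4348 and XCP1 1194 and 1327, while the cellulose synthases of secondary walls CESA4, IRX1 and IRX3 had 655 and 659, 616 and 630, and 307 and 336, and the xylem master factor VND7 had 95.5 and 102. All 13 vascular genes were higher on replicate 2.

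TGG1 and TGG2, the myrosinases of myrosin and guard cells that split glucosinolates, were very bright with 104997 and 99493, and 64456 and 59138. Their substrates' pathway was detected throughout, 14 of 14, with a median percentile of 77.6. The sulfotransferase SOT16 had 7944 and 7960, CYP83A1 of the methionine-derived branch 6276 and 6850, and CYP83B1 of the tryptophan-derived branch 3691 and 3583. Of the regulators of the pathway MYB34 had 1840 and 1337, MYB28 234 and 222 and MYB51 138 and 124.

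Markers of organs other than leaves were not detected or lay in the lower part of the range, at percentile 32.3 or below. Of 8 genes of the shoot meristem and organ boundaries only CUC3 was detected, with 42.8 and 45.4. WUS, CLV3, STM, KNAT1, KNAT6, CUC1 and CUC2 were not, though KNAT6 and CUC1 were well above background on 1 array. Of 8 flower genes AP1, AP3, AG and LFY were not detected, and AGL8 was the highest with 205 and 177, followed by SEP3 with 49.2 and 63.0, PI with 23.1 and 27.3 and SEP1 with 14.4 and 31.3. Of 7 root genes EXPA7 and RHD6 were not detected, though RHD6, with 9.79 and 45.0, was well above background on 1 array. The aquaporin PIP2;4 had 296 and 299, the nitrate transporter NRT2.1 had 120 and 102, and COBL9, IRT1 and HA7 lay between 18.5 and 27.2. Of 4 pollen genes only AtVEX1 was detected, with 23.7 and 22.7. Of 6 seed genes FUS3, CRA1 and LEC1 were detected, all below 50 on both arrays, and OLEO1, SESA1 and CRU3 were not. OLEO1 and CRU3 were well above background on 1 array. All 8 mesophyll markers stood at percentile 98.8 or above, which matches the labelled tissue.

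**Figure D4:**
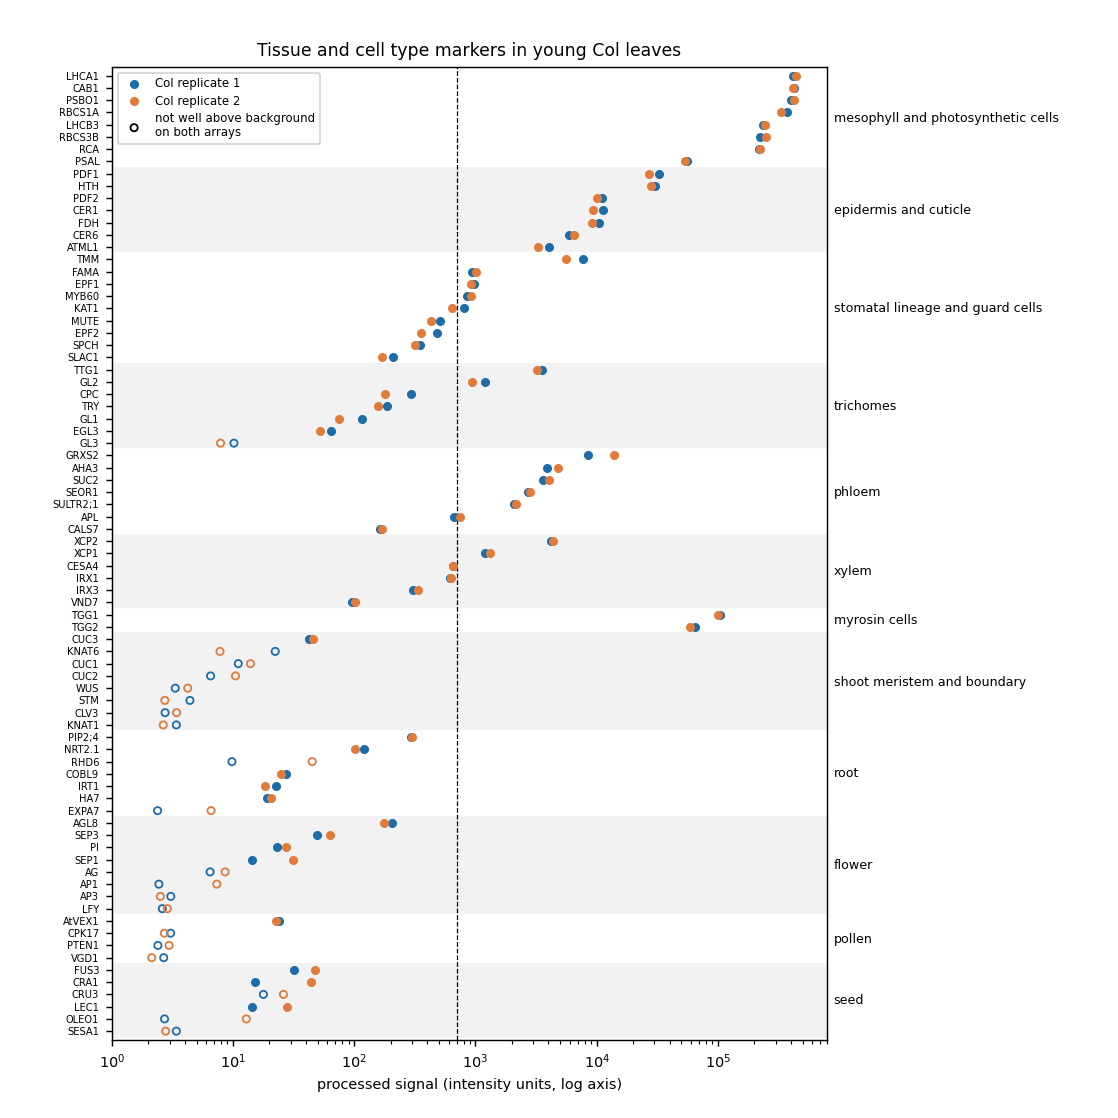
Processed signal on a log axis for each marker of a tissue or cell type, with 1 point for each of the 2 arrays and open points where the gene was not well above background on both. The dashed line is the median of all detected loci on replicate 1 (707). Mesophyll markers lie at 53699 or more, epidermal markers at 3252 or more, and markers of meristem, pollen and seed below 50.

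Of the families tied to reproduction few members were detected. Of 57 self-incompatibility S1 proteins 2 were detected, of 23 gametogenesis proteins of the ECA1 class 2, and of 19 seed storage and oil body proteins 4, of which the oleosin AT5G56100 was an exception with 1472 and 2040. Defensin-like peptides had 26 of 208 members detected, or 12.5%, yet AT3G05730 had 57786 and 49115 and LCR69 had 36726 and 27072. Thionins had 5 of 29 detected with AT1G66100 at 14372 and 12594. Among terpene synthases 5 of 34 were detected, and GA2, which serves gibberellin synthesis, was the brightest with 377 and 420. Late embryogenesis proteins had 12 of 40 detected at a median percentile of 45.9, a value that was 15.3 in the authors' deposited table of log2 values and 11.4 over loci with 1 probe.

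The clock was sampled once, 5 h after lights on. All 16 genes listed were detected. Of genes that peak around dawn and in the morning, PRR7 had 2569 and 2371 and LNK2 and LNK1 had 2283 and 2219, and 1829 and 1665. The dawn factors CCA1, RVE1, LHY and RVE8 had 632 and 759, 293 and 369, 140 and 184, and 28.9 and 33.1, and PRR9 had 97.7 on both. Of the afternoon and evening genes PRR5 was brightest with 3019 and 3026, followed by GI with 1737 and 1428, ELF3 with 1544 and 1419, LUX with 1141 and 1058, ZTL with 955 and 768, ELF4 with 870 and 730, TOC1 with 473 and 412 and BOA with 65.5 and 97.8. The medians were percentile 42.5 for the morning list and 58.9 for the other, and the lists overlapped over most of their range.

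Senescence genes were low. Of 10 listed, SAG12, SAG13, SAG29, NAC092 and FRK1 were not well above background, and the detected SAG21, SAG101, WRKY53, SEN1 and NAP lay at percentiles 32.7 to 53.5. SAG12, a peptidase that appears late in yellowing leaves, is the common marker of that stage. Heat shock genes were low too: HSP101 had 153 and 119, HSP70 (AT3G12580) 79.3 and 87.3 and HSP90.1 54.2 and 73.4, and 5 small heat shock genes were not detected. Genes known to rise within minutes of touch, wounding or cold were mostly brighter than these. All 12 were detected and 7 were in the top decile, or 58.3% of the list against 6.46% of all loci on the array. The list was chosen with earlier results of these data known, so this share describes the list only. DIC2, a mitochondrial carrier, had 24315 and 19735, TCH4, a wall enzyme, had 16299 and 22038, and SZF1, a zinc finger protein, had 17778 and 16693. The calmodulin-like TCH3 and TCH2 had 12065 and 11044, and 7973 and 8143, and the zinc finger repressors STZ and RHL41 had 10805 and 9118, and 9043 and 6688. WRKY40 and WRKY33 had 2927 and 2119, and 1971 and 1329. ERF2 was the lowest with 179 and 183. The signals of the list thus ran over most of the range of detected loci on both arrays.

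Cell wall and membrane transport genes were uneven. Of 37 aquaporins 27 were detected and 11 were in the top decile. The tonoplast channel TIP2 (AT3G26520) had 106961 and 99311, and the plasma membrane channel PIP3 (AT4G35100) had 99005 and 99432, while TIP4;1 had 55.2 and 30.4. Of 33 expansins, which loosen walls, 20 were detected, with EXPA6 at 18471 and 15892 well above EXPA1 at 6598 and 3801. Of 31 xyloglucan endotransglucosylases 21 were detected, led by XTH9 with 45780 and 35923. Of 32 cellulose synthase family members 25 were detected; CEV1 (AT5G05170), a catalytic subunit of primary walls, had 14219 and 13490, CESA2 3715 and 3627 and CESA6 3509 and 3213. Arabinogalactan proteins, sugar-rich proteins of the wall, had 40 of 55 detected and a median percentile of 80.6, with AT4G16980 at 104092 and 100098.

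Redox and detoxification families each held very bright members. The metallothionein MT2B had 97840 and 110581, the peroxidase PRXR1 98436 and 76458 and the glutathione transferase GSTF9 71185 and 61448. Metallothioneins had 5 of 6 members detected at a median percentile of 91.8, class III peroxidases 27 of 72 detected at a median percentile of 20.5, and glutathione transferases 40 of 57 at 53.5. Cytochromes P450 had 122 of 239 detected at 29.2, and CYP97B3, CYP86A2, CYP51G1 and the brassinosteroid enzyme CPD led with signals from 7018 to 10866. Receptor families differed. NBS-LRR immune receptors had 74 of 109 detected, or 67.9% against 67.5%, at a median percentile of 22.6. RPP5 had 9330 and 8442 and RPP8 had 4197 and 3495, both far above that median. Leucine-rich repeat kinases had 126 of 182 at 48.1, led by SOBIR1, a co-receptor of immune receptors, with 9599 and 7313, and including ER (ERECTA), which shapes stems and stomata, with 8287 and 6213.

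Loci annotated as other than protein genes differed by class. Those annotated as other RNA had 181 of 290 detected, or 62.4%, with AT1G15405 at 46270 and 35589. Of 1118 transposable element genes 128 were detected, or 11.4%, at a median percentile of 11.9. AT2G07080 however had 128786 and 133668, and SADHU1-1 had 15316 and 15570. Each of these values rests on 1 probe, and whether that probe shares signal with other loci was not tested. Of 626 pseudogenes 164 were detected, and AT1G34690 and AT1G34680, both annotated as similar to a maturase, had 131822 and 136307, and 74550 and 72825. Maturase K of the plastid (ATCG00040) had 347300 and 309756, and whether these probes share signal with it was not tested. Of 3123 loci annotated only as unknown protein 1886 were detected, or 60.4%, and 127 were in the top decile, with AT4G01150 at 122465 and 113092 and AT5G42530 at 57137 and 72639. Over the 5 nuclear chromosomes the detected share ran from 65.3% on chromosome 2 to 68.3% on chromosome 5.

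Reference genes often used to normalise expression covered a wide range. EF1A had 200572 and 190200, UBQ10 138504 and 130433, GAPC2 84244 and 83489 and ACT2 32591 and 32136. PP2AA3, TIP41, PEX4 and SAND, which are chosen for their even level, had 2111 and 1770, 2079 and 1711, 1759 and 1788, and 895 and 845. Their log2 differences between the arrays, relative to each array's 75th percentile, ran from -0.13 to 0.17.

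The difference between the 2 arrays was the last measure. It was taken as the log2 signal of replicate 1 minus that of replicate 2, each relative to the 75th percentile of its array (927 and 859). Replicate 1 lay on 1 slide and replicate 2 on another, so that slide and biological sample cannot be told apart. Of the 19107 loci 90.8% differed by no more than 0.5, and 469 by at least 1, with 92 higher on replicate 1 and 377 on replicate 2. After quantile normalization the counts were 153 and 292, and after normexp with quantile normalization 5 and 28, or 33 in all. Normexp left a median corrected signal of 1452 on replicate 1 and 179 on replicate 2, and its effect on these counts was not tested. All detected loci were also cut into 10 near-equal parts by mean log2 signal. Of the 469 loci 228 lay in the dimmest part and 5 in the brightest. The median size of the difference fell from 0.33 in the dimmest part to 0.11 in the brightest.

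Among the largest differences were loci that lie beside each other. NIG1 (AT5G46830), a bHLH factor induced by salt, had 883 on replicate 1 and 57.8 on replicate 2, a difference of 3.82. AT4G22490, annotated as a lipid-transfer protein, had 429 and 32.4, and AT4G22505 had 196 and 24.9. The last 2 are neighbours on chromosome 4, and 3 more loci of that run, AT4G22485, AT4G22513 and AT4G22517, chosen after their values were seen, differed by 2.13, 2.49 and 2.57 in the same direction. All 5 are annotated as lipid-transfer proteins, and whether their probes share signal was not tested. Beside them AT4G22520, annotated alike, differed by 1.10, and AT4G22530, a methyltransferase by its annotation, by -0.13. The other 7 of the 10 largest in this direction were CDEF1, NAP5, AT3G05727, BLH8, ZAT11, RSH3 and AT5G53048, with differences from 2.71 to 3.25, and 13.2 to 36.9 on replicate 2, near the floor.

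In the other direction ARI13 (AT5G63750), a RING protein, had 65.6 on replicate 1 and 819 on replicate 2, a difference of -3.75. AT4G15680, annotated as a thioredoxin superfamily protein, had 29.3 and 248. Its detected neighbours AT4G15660, AT4G15690 and AT4G15700, chosen after their values were seen, differed by -2.49, -2.59 and -2.52. Whether the probes of AT4G15680 and these neighbours share signal was not tested. The jasmonate repressor JAZ7 had 49.5 and 339 and DREB26, an AP2/ERF factor, had 149 and 972. AT1G03106 had 155 and 1049, and AT3G33160, AT4G39930, AT5G43185, AT2G24670 and AT1G47395 differed by -2.69 to -3.14. The glutaredoxin GRXS2 of the phloem list was also lower on replicate 1, by -0.82.

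Some groups of genes shifted together between the 2 arrays by small amounts. The GRF and GIF list was higher on replicate 1 in 10 of 11 members, with a median difference of 0.38, kinesins in 17 of 22 (0.24), cyclins in 31 of 44 (0.18) and trichome regulators in 6 of 6 (0.22), against 8996 of 19107 for all loci (-0.01). Xyloglucan endotransglucosylases were higher on replicate 1 in 5 of 21 (-0.47), SAUR proteins in 15 of 54 (-0.21), phloem markers in 0 of 7 (-0.26), xylem markers in 0 of 6 (-0.19) and ribosomal proteins in 52 of 291 (-0.13). Of other wall families, expansins were higher on replicate 1 in 12 of 20 (0.07) and pectin lyase-like proteins in 27 of 48 (0.11). After quantile normalization alone these medians kept their signs. They were 0.43 for the GRF and GIF list, 0.24 for kinesins, 0.28 for cyclins and 0.30 for trichome regulators. For xyloglucan endotransglucosylases the value was -0.47, for SAUR proteins -0.14, for phloem -0.23, for xylem -0.14 and for ribosomal proteins -0.08. After normexp with quantile normalization the medians also kept their signs and were smaller in size than without either step. They were 0.17 for the GRF and GIF list, 0.10 for kinesins, 0.08 for cyclins and 0.13 for trichome regulators. They were -0.20 for xyloglucan endotransglucosylases, -0.07 for SAUR proteins, -0.21 for phloem, -0.13 for xylem and -0.06 for ribosomal proteins. Normexp left unlike median signals on the 2 arrays, and its effect on these sizes was not tested. The lean to replicate 2 was not particular to vascular, wall or ribosomal genes. Without normexp, Calvin cycle enzymes were higher on replicate 1 in 0 of 15 (-0.14) and plastid-encoded genes in 1 of 56 (-0.14). The antenna was so in 5 of 26 (-0.09) and carbonic anhydrases in 7 of 13 (0.004).

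**Figure D5:**
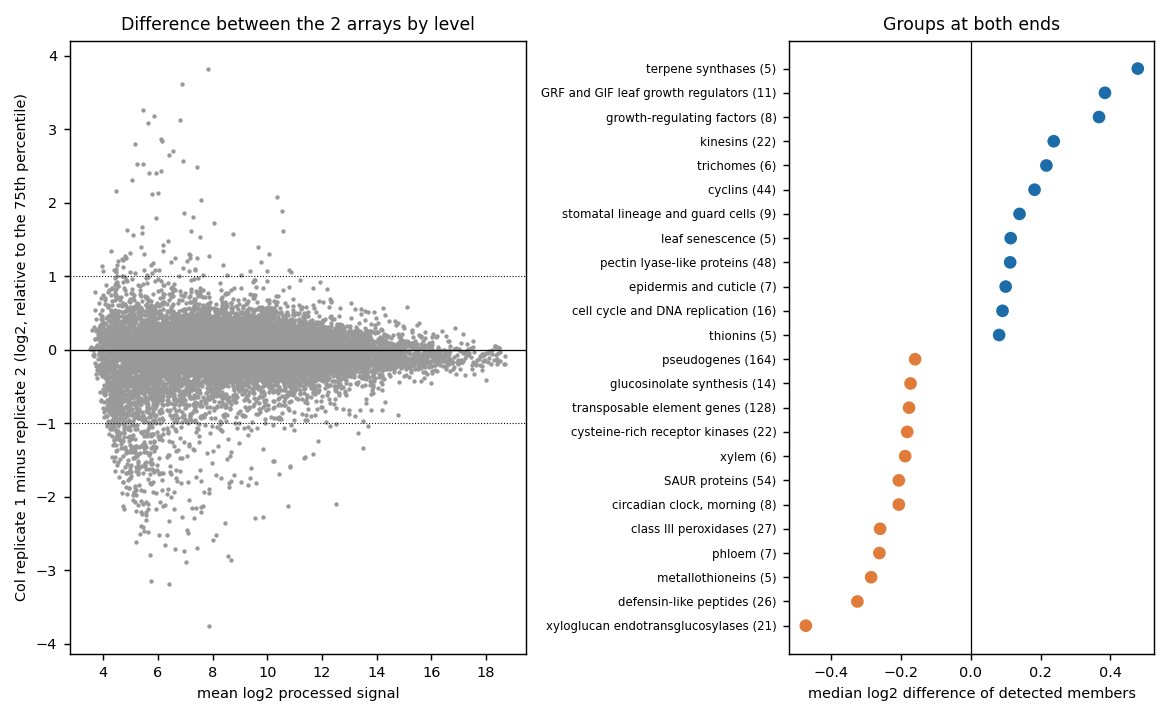
Left, the log2 difference between replicate 1 and replicate 2 (relative to the 75th percentile of each array) against the mean log2 processed signal, with 1 point for each of 19107 loci and dotted lines at a difference of 1 either way. Right, the 12 groups with the highest and the 12 with the lowest median difference among those with at least 5 detected members, whose number is in brackets. The spread narrows from dim to bright loci, and the group medians stay within 0.48 either way.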

How the data were processed

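Cy3-labelled total leaf RNA was read on 1-colour Agilent arrays, 1 array per sample, and the 2 Col arrays were used. The scanner files hold the linear intensity of each spot, and the processed signal used here is that intensity after the scanner software subtracted its background, per the file headers. The software was Agilent Feature Extraction 11.5, as the submitters' processing notes name it. The authors also deposited log2 values per spot and per gene, with unstated scaling, which served only as alternatives. Loci and descriptions came from the deposited array annotation, built on TAIR10, and symbols from RefSeq.

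Control spots and outlier spots (42 and 18) were dropped, and repeated spots of a probe averaged. Of 37254 probes that match 1 locus, 26225 were marked well above background on both arrays. The 900 probes of several loci and 5446 with no match were left out. A locus took its brightest detected probe. Ranks were taken within each array, so no scaling between arrays enters them. Families were found by keywords in the description column, for example "Histone superfamily protein", and may hold relatives such as LEC1. The loci, families and lists were chosen with earlier results of these data known. Named genes were the 30 brightest loci, the 4 brightest and the dimmest of a described family, the 10 brightest transcription factors, the 10 largest differences each way, and members of short lists; any others named were chosen after their values were seen. Ranks were computed with pandas 2.3.3 and checked on simulated signals; background correction as an alternative used limma 3.58.1 in R 4.3.3. The number of arrays limits the precision. No sequence of the probes or genes was used here.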

Additional observations from a re-analysis of the deposited data

Results flagged for a closer look

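Probes that the description above leaves out held bright signal. Of the 2344 detected probes with no match to a locus, 49 were at or above the signal of the locus of rank 100 on average over both arrays, and 12 at or above that of rank 30. The brightest of them had 334896 on replicate 1 and 369964 on replicate 2. They have no gene name in the deposited table of array elements.

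Of the 560 detected probes that match several loci, 29 were at or above the signal of the locus of rank 100 and 21 at or above that of rank 30. The brightest matched both copies of the 16S ribosomal RNA gene of the plastid (ATCG00920 and ATCG01210), with 466115 and 418271, above every probe of a single locus on replicate 1. Others matched 2 nuclear ribosomal RNA genes (AT2G01010 and AT3G41768), and another, shared by CAB1, CAB2 and CAB3, had 390242 and 436378. A probe shared by LHCB2.1 and LHCB2.2 had 327852 and 373300. Genes covered only by such shared probes have no rank here.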

How the results depend on the processing

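The number of detected loci was 19107, and 18518 above the cutoff of the authors' deposited call table, 19745 with probes of several loci counted for each, 20625 when 1 array sufficed, and 19419 to 20325 with 1 array left out. Rank agreement was 0.992, 0.991 after normexp background correction, 0.988 in the authors' deposited table and 0.979 with no filter on dim probes, where loci near the floor enter. Of 73 families and lists with at least 5 detected members, 20 had a median at percentile 75 or above, and 19 or 20 under the other settings save 1: it was 16 over loci with 1 probe, an alternative chosen after seeing the data that leaves 64 groups. Of the 30 brightest loci, 19 stayed among the brightest 30 with the mean of a gene's probes, 22 with the median probe, 18 in the authors' deposited table, 20 with shared probes counted, 27 after normexp and 29 with either array left out. GDSL lipases had a median percentile of 67.6 among detected members and 33.6 when undetected members were ranked too, as that alternative adds dim loci. The count of loci that differed by at least 1 on the log2 scale between the arrays was 469. Quantile normalization gave 445, and normexp followed by it gave 33; normexp left the median corrected signal at 1452 on replicate 1 and 179 on replicate 2, and the cause was not tested. No paired analysis was possible because the values come from 1 group and from no test. Probes near background limit what can be said of dim loci: 1518 loci were well above background on 1 array only.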
